A study of Mus musculus with 8 samples.

Results

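A set of 9 genes that write, copy or remove cytosine methylation were followed over 8 ChIP-seq peak lists from mouse embryonic stem cells. They were the maintenance methyltransferase Dnmt1 and its recruiting partner Uhrf1, the de novo methyltransferases Dnmt3a and Dnmt3b with their catalytically inactive cofactor Dnmt3l, the dioxygenases Tet1, Tet2 and Tet3, and the thymine DNA glycosylase Tdg. They were chosen by name, 9 of the 21951 protein-coding genes in the GENCODE M21 annotation. No measured value was part of the rule, though earlier results of these data were known. A promoter peak was a deposited peak that overlapped, by at least 20 bp, the stretch from 5 kb upstream to 1 kb downstream of any annotated transcript start of the gene, and a gene body peak was one elsewhere between the gene's ends. By these rules the 9 genes held 76 peaks at 42 separate sites, 47 of them promoter peaks at 27 sites and 29 of them gene body peaks at 15 sites.

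All libraries came from E14Tg2a, a mouse embryonic stem cell line, at passages 37 to 40. Undifferentiated cells (ESCs) were kept with leukaemia inhibitory factor (LIF), and neuronal committed cells (NCs) were monolayers taken off LIF and given 1 µM retinoic acid (RA) for 48 h. In ESCs, antibodies to the fibroblast growth factor receptor FGFR1, the retinoid X receptor RXR and the orphan nuclear receptor Nur77 gave 1 library each. In NCs, FGFR1 gave 2 libraries, and RXR, Nur77 and the replacement histone H3.3 gave 1 each. Chromatin from several plates was pooled, the cells are 1 line, and only FGFR1 in NCs had a second library, so no difference between ESCs and NCs could be tested against replicate error.

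In mammals most cytosine methylation sits on CpG dinucleotides. Dnmt3a and Dnmt3b set it, Dnmt1 copies it onto the new strand after replication at sites that Uhrf1 recognises, and the TET enzymes oxidise it to forms that Tdg excises. In stem cells leaving pluripotency these enzymes are known to change in abundance, and Dnmt3a, Tet1 and Tet3 are each known to be transcribed from more than 1 start.

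The lists give no depth, so the fragments behind each peak were worked out from its fold over local background and its -log10 p, the 2 strengths the peak caller gave it. The lists held 10634 to 46137 peaks, the background was 1.27 to 7.09 fragments per kb, and the fewest fragments that could pass the caller's limit were 4 to 8. Background was taken as the lowest local background solved in a list, and fragment length as the width of its narrowest peak. The value per kb is the ratio of these estimates. The second FGFR1 library in NCs stood apart from the other 7. Its estimated fragment length was 153 bp, its median peak 311 bp wide, and 1.26% of its peaks held a tract, a stretch of 20 bp or more in which purines and pyrimidines alternate, against 21.1% to 51.7% in the other lists. The 9 genes also offered more room than most genes, with a median promoter window of 18584 bp and 7 starts, against 8812 bp and 3 starts over all protein-coding genes. The part of these windows in the counts below was not tested.

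The sites that carried the peaks are shown first, each on the strand of its gene in build GRCm38.p6 of RefSeq (the coordinates of mm10), cut to bases outside untranslated exons. The first lies just upstream of the start of Dnmt1-201, at chr9:20952980-20953201 on the minus strand, under the strongest peak of all 9 genes. The second is the intronic Dnmt1 tract at chr9:20942433-20942542, minus strand, and the third the Tet3 tract at chr6:83441087-83441216, minus strand. In both, the capitals mark the longest run in which purines and pyrimidines alternate, 40 bp in Dnmt1 and 44 bp in Tet3.
Dnmt1 promoter: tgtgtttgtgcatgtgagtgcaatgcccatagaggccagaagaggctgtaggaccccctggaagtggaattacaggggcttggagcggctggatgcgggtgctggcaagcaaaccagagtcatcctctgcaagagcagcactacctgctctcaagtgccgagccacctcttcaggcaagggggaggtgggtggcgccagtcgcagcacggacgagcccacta
Dnmt1 intron: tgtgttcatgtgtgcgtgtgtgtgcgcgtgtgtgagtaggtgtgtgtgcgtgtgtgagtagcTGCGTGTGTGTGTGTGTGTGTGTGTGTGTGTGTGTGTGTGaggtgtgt
Tet3 exon: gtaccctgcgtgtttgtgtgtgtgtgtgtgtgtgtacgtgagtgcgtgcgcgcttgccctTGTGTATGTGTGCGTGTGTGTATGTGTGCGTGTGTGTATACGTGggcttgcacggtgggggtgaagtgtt

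The next 6 come from FGFR1 and RXR peaks at or near starts, and capitals in them mark the words searched for. The words, on either strand, were AGGTCA (the core element of nuclear receptors), AAAGGTCA (the Nur77 element NBRE, which holds AGGTCA), TGACGTCA (CRE), GCGCATGC (NRF1), CCGGAAGT (ETS), CACGTG (E-box), GGGCGG (GC box) and CCACNAGG (CTCF). The Tet1 site is at chr10:62887325-62887412 on the minus strand, the Tdg start at chr10:82629663-82629827, the Tdg intron at chr10:82630025-82630205, the Dnmt3a internal start at chr12:3891406-3891619 and the Uhrf1 site at chr17:56303212-56303320, all 4 on the plus strand, and the Tet2 site at chr3:133544138-133544199 on the minus strand.
Tet1 internal start: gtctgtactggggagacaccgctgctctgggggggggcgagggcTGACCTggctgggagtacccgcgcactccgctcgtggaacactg
Tdg start: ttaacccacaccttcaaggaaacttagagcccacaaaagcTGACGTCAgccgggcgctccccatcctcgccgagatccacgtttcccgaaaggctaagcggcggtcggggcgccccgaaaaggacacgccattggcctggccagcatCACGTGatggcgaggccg
Tdg intron: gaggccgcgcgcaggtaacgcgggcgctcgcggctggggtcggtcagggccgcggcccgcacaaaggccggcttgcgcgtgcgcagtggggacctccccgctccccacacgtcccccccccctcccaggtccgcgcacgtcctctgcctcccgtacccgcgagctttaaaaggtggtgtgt
Dnmt3a internal start: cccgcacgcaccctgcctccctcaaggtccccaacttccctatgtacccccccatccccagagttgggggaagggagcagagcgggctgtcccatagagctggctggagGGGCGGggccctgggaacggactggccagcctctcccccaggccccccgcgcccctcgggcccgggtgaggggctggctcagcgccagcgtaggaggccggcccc
Uhrf1 upstream: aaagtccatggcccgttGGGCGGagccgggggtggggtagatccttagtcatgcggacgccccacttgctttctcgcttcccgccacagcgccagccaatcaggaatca
Tet2 start: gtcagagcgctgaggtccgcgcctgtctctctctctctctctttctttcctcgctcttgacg

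FGFR1 held no promoter peak at any of the 9 genes in ESCs, where 19.7% of all protein-coding genes had one. In NCs it held promoter peaks at 6 genes in the first library (55.9% of all genes) and at 7 in the second (51.5%), a mean of 6.5 ± 0.707 (SD, n = 2). Dnmt1, Dnmt3a, Tet1, Tet3 and Tdg had one in both NC libraries, 5 of 9 beside 42.6% of all genes, and since none had one in ESCs the same 5 stood beside the 26.0% of all genes with FGFR1 peaks in both NC lists and not in the ESC list. Dnmt3b had an FGFR1 peak in the first NC library only, Uhrf1 and Tet2 in the second only, and Dnmt3l in neither.

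In lists of equal length the gap between ESCs and the first NC library closed, and the gap to the second narrowed but remained. Every list was cut to its 10634 strongest peaks, the number in the shortest list. FGFR1 then kept 0 genes in ESCs, 0 in the first NC library and 4 in the second, beside 18.0%, 20.6% and 44.7% of all genes. The 4 were Dnmt1, Uhrf1, Tet3 and Tdg, while Dnmt3a, Tet1 and Tet2 dropped out of the second NC library. The first NC library had a background of 0.300 fragments at a position against 0.309 in the ESC library, but 4.16 against 2.71 per kb. The value at a position also depends on fragment length, estimated at 72 bp in the first NC library and 114 bp in ESCs. All scaling here used the value at a position. Scaled so, all 13 promoter peaks of the first NC library at these genes would have passed the caller's limit in ESCs. Of the 10 promoter peaks in the more deeply sampled second library, 4 would have passed.

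**Figure D1:**
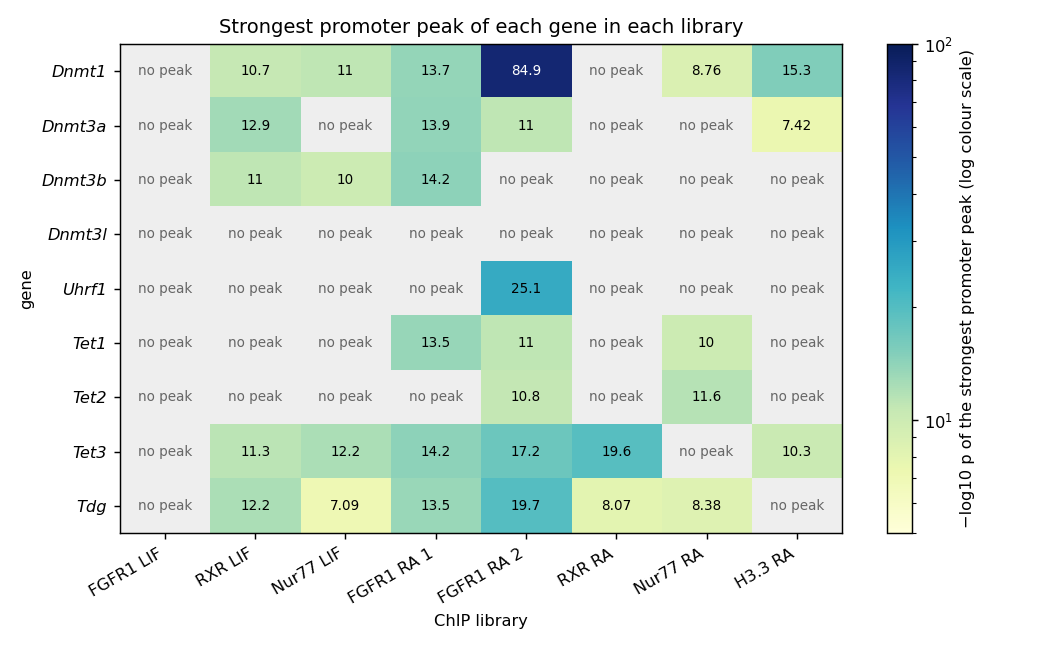
Strongest promoter peak of each of the 9 genes (rows) in each of the 8 libraries (columns), as the deposited -log10 p on a log colour scale; grey cells held no promoter peak. The FGFR1 column in ESCs is empty, the Dnmt3l row is empty, and the Dnmt1 value of 84.9 in the second FGFR1 library of NCs is the highest.

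RXR was listed at more of the genes in ESCs than in NCs. In ESCs it held promoter peaks at Dnmt1, Dnmt3a, Dnmt3b, Tet3 and Tdg, 5 of 9 beside 46.4% of all genes, and in NCs at Tet3 and Tdg only, 2 of 9 beside 26.2%. Dnmt1, Dnmt3a and Dnmt3b therefore had RXR in ESCs and not in NCs, as did 24.5% of all genes. Tet3 and Tdg had it in both, as did 21.8%. In lists of equal length RXR kept 2 genes in ESCs (Dnmt3a and Tdg) and 1 in NCs (Tet3). The shares of all genes were then 17.1% and 15.2%. The RXR library of NCs was shallow, with 1.87 background fragments per kb against 7.09 in ESCs. Of the 9 RXR promoter peaks in ESCs, 7 had no overlapping peak in NCs, and scaled to the NC background only 1 of those 7, the Dnmt3a tract site, would have passed the limit. The scaled peaks held 5.35 and 4.21 fragments at Dnmt1 and 5.74 at Dnmt3b, short of the limit. Whether RXR was lost at these genes was not tested. The scaling is a point estimate without sampling error, and it also put the Tet3 tract peak below the limit, where RXR in NCs did have a peak.

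Nur77 held 4 of the 9 promoters in each state, beside 29.8% of all genes in ESCs and 30.9% in NCs. Dnmt1 and Tdg had Nur77 in both (17.5% of all genes), Dnmt3b and Tet3 in ESCs only (12.3%), and Tet1 and Tet2 in NCs only (13.5%). Tet1 lost it with a window of 1 kb on either side or with starts of protein-coding transcripts alone. Scaled to the other library, each of the 4 ESC peaks and 5 NC peaks held enough fragments to pass, by point estimates of 6.48 to 12.3 fragments. At a -log10 p of at least 10, Tet2 alone kept Nur77 in NCs (18.0% of all genes), while Dnmt1, Dnmt3b and Tet3 kept it in ESCs (15.3%). In lists of equal length the counts were 2 in ESCs and 0 in NCs, beside 13.1% and 11.3% of all genes.

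H3.3, a histone variant laid down outside replication and measured in NCs alone, had promoter peaks at Dnmt1, Dnmt3a and Tet3, 3 of 9 beside 17.9% of all genes. It was the shallowest library, with 1.27 background fragments per kb. All 3 genes also had FGFR1 in both NC libraries. The H3.3 peak overlapped an FGFR1 peak of the first library at each of them, at Tet3 on the tract, and of the second library at Dnmt1 only. How often H3.3 and FGFR1 peaks overlap over all genes was not counted, so nothing particular to these genes can be read from it.

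**Figure D2:**
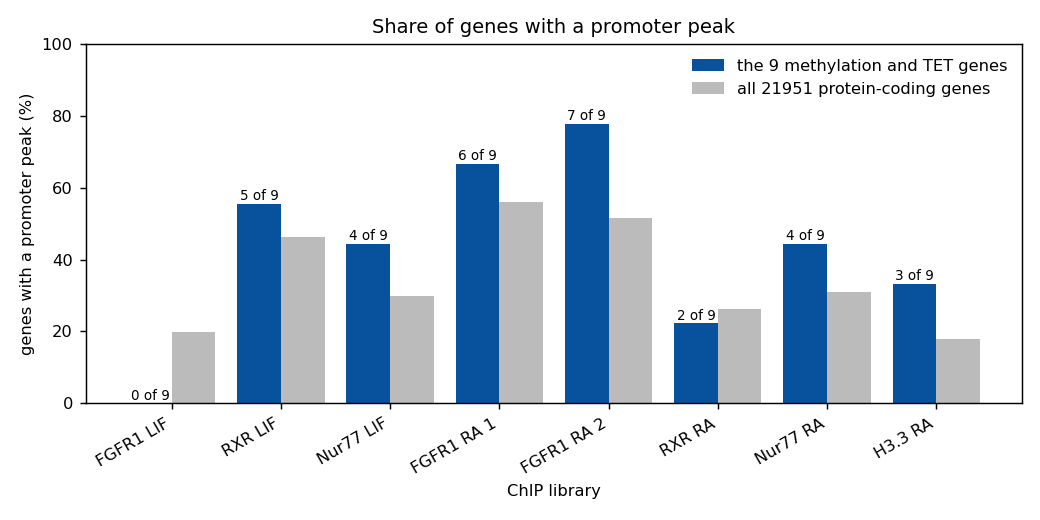
Percent of genes with a promoter peak in each library, for the 9 genes (blue, with the count above each bar) and for all 21951 protein-coding genes (grey). The 9 genes range from 0 of 9 with FGFR1 in ESCs to 7 of 9 with FGFR1 in the second NC library, and all genes from 17.9% to 55.9%.

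Dnmt1, which copies methylation after replication, had the strongest peak of the 9 genes. The FGFR1 peak of the second NC library at chr9:20952653-20953201 held 90 fragments over a local background of 4.24, giving a fold of 17.4 and a -log10 p of 84.9, and ranked 289 of 14082 in its list. Its summit lay 71 bp upstream of the start of Dnmt1-201, in an intron of a longer transcript. At the same place the first NC library had an FGFR1 peak of 14 fragments (-log10 p 13.7, fold 8.21), its summit 18 bp upstream. Both FGFR1 libraries of NCs thus had a peak over this start, while the ESC library had none, although the second library's 90 fragments scaled to 26.8 at the ESC background.

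Nur77 and H3.3 also had peaks over this start. Nur77 had a -log10 p of 11.0 in ESCs and 8.76 in NCs, with summits 24 and 55 bp inside, and H3.3 one of 15.3, its summit 23 bp inside. RXR in ESCs had its 2 peaks further in, with a -log10 p of 10.7 and 7.78, and the weaker of them coincided with another FGFR1 peak of the first NC library (11.0) in a coding exon. Overlapping peaks of 6 libraries thus formed 1 site here, missing only from FGFR1 in ESCs and RXR in NCs, and Dnmt1 shared its pattern of presence over the 8 libraries with 154 protein-coding genes, itself included. The word GCGCATGC lay within 50 bp of the summit in 3 peaks of this site (Nur77 in both states and H3.3) and in the stronger RXR peak of ESCs, which lay outside it.

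A separate Dnmt1 site sat in an intron, on the tract printed above. Peaks at chr9:20942390-20942582 were listed for FGFR1 in ESCs (12.1), RXR in ESCs (28.3), Nur77 in NCs (20.04), the first FGFR1 library of NCs (25.4) and H3.3 (16.4), the numbers being -log10 p. This was the one Dnmt1 site with FGFR1 in ESCs. Its summits lay 5268 to 5300 bp upstream of the start of Dnmt1-206, just beyond the 5 kb limit, and 78.8% to 100% of each peak was masked as repeat in the reference. The second FGFR1 library of NCs, with the strongest promoter peak of the gene, had none on the tract.

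Uhrf1, which brings Dnmt1 to hemimethylated DNA, had promoter peaks in 1 library. The second FGFR1 library of NCs held 3, with a -log10 p of 11.2, 11.0 and 25.1 from 24, 24 and 40 fragments. Their summits lay 45 bp upstream of Uhrf1-201, 167 bp inside Uhrf1-203 and 14 bp upstream of Uhrf1-207. The first NC library had none, and scaled to its background the strongest of the 3 would have passed the limit and the others would not. No antibody had a gene body peak in Uhrf1, and 806 protein-coding genes shared its pattern of a promoter peak in that library alone.

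**Figure D3:**
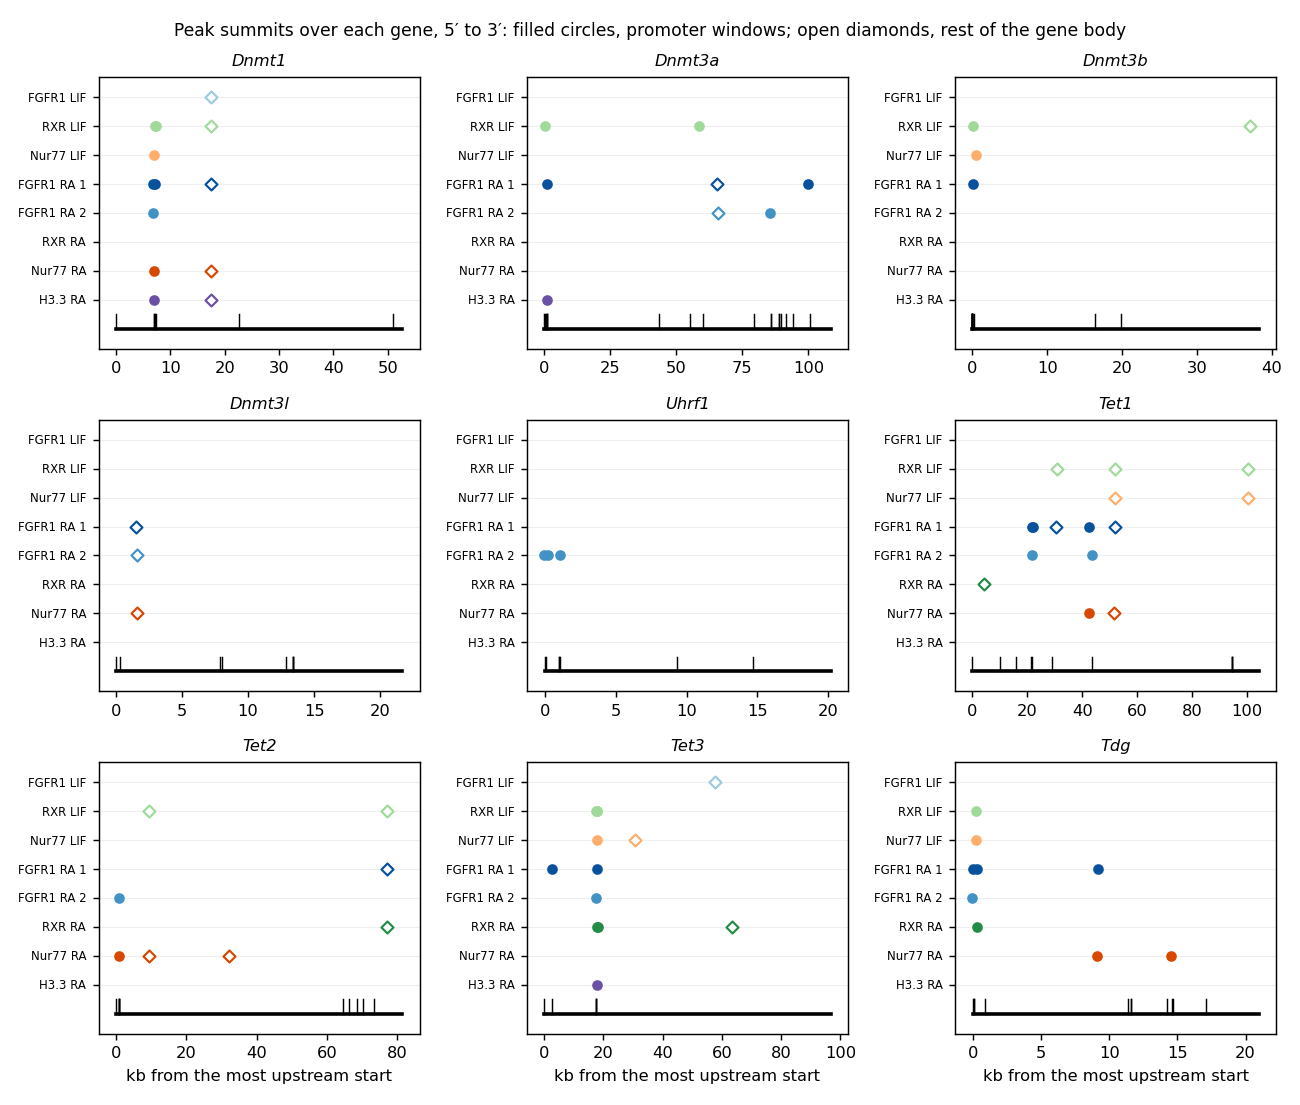
Peak summits along each of the 9 genes, in kb from the most upstream annotated start in the direction of transcription, 1 row per library; filled circles are promoter peaks, open diamonds gene body peaks, and black ticks annotated starts. Summits of several libraries line up at Dnmt1, Tet3 and Tdg, and those of Dnmt3a are spread over its length.

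Dnmt3a, a de novo methyltransferase, had FGFR1 in both NC libraries but at different starts. In the first library the peaks were at the start of Dnmt3a-201 (-log10 p 13.9, summit 1 bp inside, 16 fragments) and 1031 bp upstream of Dnmt3a-210 (9.75). In the second the peak at chr12:3891406-3891619 (11.0, fold 5.67, 18 fragments) lay 216 bp upstream of Dnmt3a-205. The first library's peak at Dnmt3a-201 scaled to 55.3 fragments in the second, past the limit, and no peak was listed there. That scaling took in the second library's longer fragments, 153 bp against 72 bp, as well as its depth. H3.3 in NCs overlapped the Dnmt3a-201 peak with a -log10 p of 7.42 from 8 fragments, and RXR in ESCs had peaks 150 bp upstream of Dnmt3a-202 (10.0) and on a tract 1588 bp upstream of Dnmt3a-211 (12.9). FGFR1 and H3.3 at Dnmt3a-201 were the only antibodies to share a place in the promoter windows of the gene.

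Dnmt3b, the other de novo methyltransferase, had a promoter peak with each receptor, all within 240 bp of a start. RXR in ESCs (-log10 p 11.0, 15 fragments) and the first FGFR1 library of NCs (14.2, 14 fragments) overlapped at chr2:153649446-153649560, with summits 37 and 47 bp inside Dnmt3b-201. Nur77 in ESCs was 240 bp inside Dnmt3b-207 (10.0, 12 fragments). The antisense gene Dnmt3bos starts within 1 kb of all 3, so the peaks cannot be told apart by gene. None of the 3 antibodies had a Dnmt3b promoter peak in the other state or, for FGFR1, in the second NC library, where the first library's peak scaled to 48.4 fragments.

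Dnmt3l, the cofactor of the de novo enzymes, had no promoter peak in any library, as did 6551 of all protein-coding genes. It had 1 intronic site, at chr10:78043392-78043725, with FGFR1 in both NC libraries (-log10 p 20.1 and 11.1, 19 and 17 fragments) and Nur77 in NCs (8.38, 10 fragments). The summits lay 1165 to 1255 bp inside Dnmt3l-205, just past the 1 kb limit, and within 1 kb of a start of the neighbouring gene Aire, a transcriptional regulator of the thymus. Each of the 3 libraries was from NCs, and the ESC lists of the same antibodies had no peak in the gene.

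Tet1, the main TET enzyme of stem cells, had promoter peaks in NC libraries only. At chr10:62887204-62887509 both FGFR1 libraries of NCs had a peak, with a -log10 p of 10.8 (fold 7.16, 10 fragments) and 11.0 (fold 5.70, 18 fragments), their summits 24 and 67 bp upstream of the start of Tet1-207. The word AGGTCA lay within 50 bp of both summits. The first library also had a peak 394 bp inside Tet1-207 (13.5) and one on a tract 1094 bp upstream of Tet1-202 (10.5), the second one 126 bp upstream of Tet1-202 (9.08), and Nur77 in NCs one 1244 bp upstream of it (10.0). The ESC lists of FGFR1 and Nur77 had no promoter peak here. Scaled to the ESC background, the first FGFR1 library's 3 peaks and the Nur77 peak would have passed. The second FGFR1 library's 2 peaks, scaled to 4.17 and 5.36 fragments, would not.

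In the Tet1 body, 3 sites held peaks of several libraries. An intronic site at chr10:62857005-62857299 was listed for RXR and Nur77 in ESCs and for the first FGFR1 library and Nur77 in NCs, with a -log10 p of 9.75, 11.2, 5.79 and 7.67, and its Nur77 peaks held a tract. A coding exon had RXR in ESCs (8.53) and the first FGFR1 library of NCs (9.11), and an untranslated exon had RXR (8.99) and Nur77 (7.68) in ESCs. Each of these sites had RXR in ESCs, and none had the second FGFR1 library of NCs.

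Tet2 had 1 promoter site. At chr3:133544138-133544353 the second FGFR1 library of NCs (-log10 p 10.8, 16 fragments) and Nur77 in NCs (11.6, 10 fragments) overlapped, with summits 94 and 72 bp inside Tet2-202 and AGGTCA within 50 bp of each. The printed Tet2 stretch does not show that word, since it was cut at an untranslated exon. By comparison, 84 protein-coding genes, Tet2 included, had promoter peaks in just these 2 libraries. The gene Gm42567 starts within 1 kb. In the body, a coding exon at chr3:133468014-133468152 had RXR in ESCs (6.18) and in NCs (9.28) and the first FGFR1 library of NCs (13.4), and an intron at chr3:133535787-133535908 had RXR in ESCs (12.2) and Nur77 in NCs (11.2). The coding exon was the only Tet2 site at which 1 antibody had a peak in both states.

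**Figure D4:**
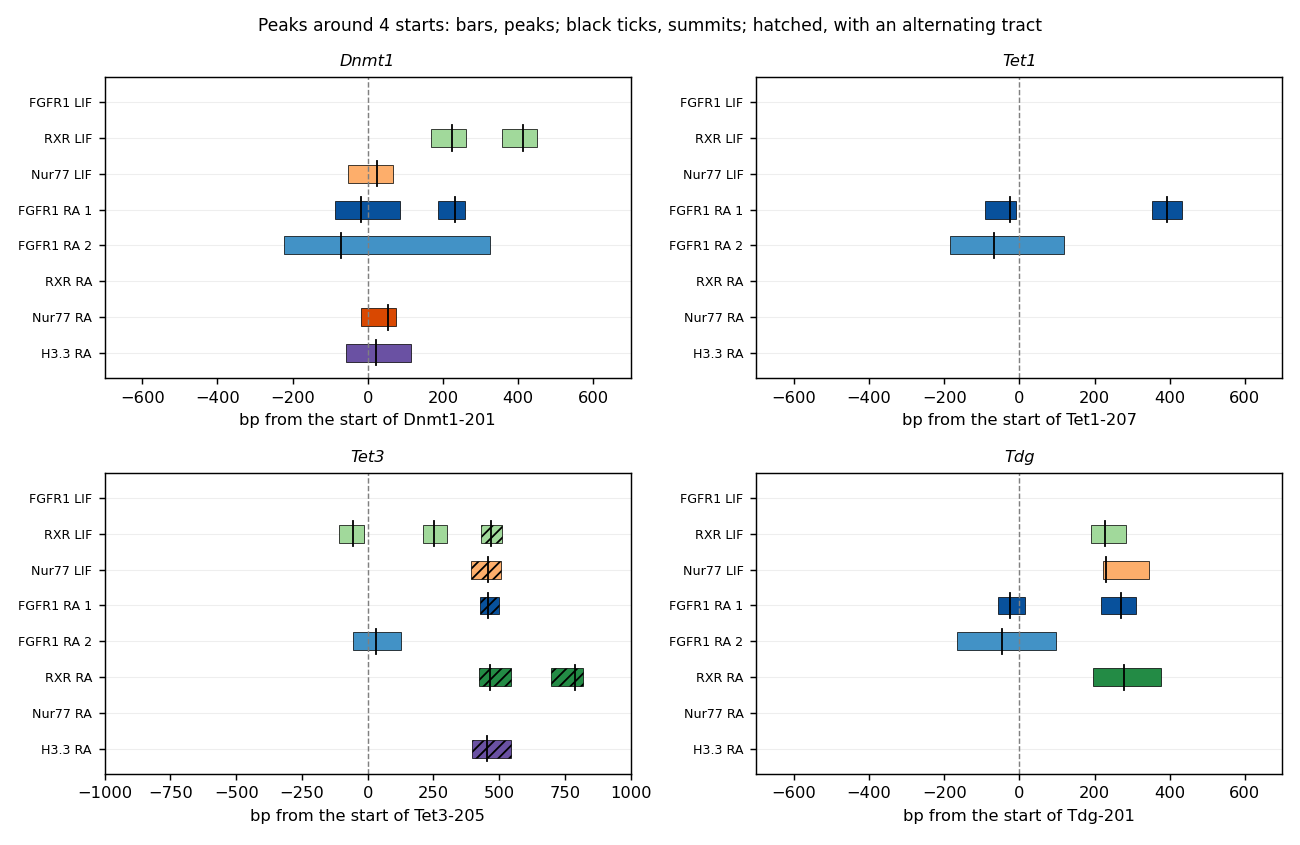
Peaks of the 8 libraries around the starts of Dnmt1-201, Tet1-207, Tet3-205 and Tdg-201, in bp in the direction of transcription; bars span the peaks, black ticks are summits, and hatching marks peaks with an alternating tract. At Tet3 the peaks of 5 libraries stack on the tract, 452 to 468 bp inside, while the second FGFR1 library of NCs is at the start, and at Tdg both FGFR1 libraries of NCs straddle the start.

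Tet3, the TET enzyme known for high expression in neural tissue, had 5 of its 10 promoter peaks on one tract. At chr6:83441087-83441241, in an exon of the non-coding transcript Tet3-205, RXR and Nur77 in ESCs had a -log10 p of 11.3 and 12.2, and the first FGFR1 library, RXR and H3.3 in NCs had 14.2, 14.4 and 10.3. Summits of the 5 libraries fell within 452 to 468 bp of the transcript's start. RXR in NCs had another tract peak 789 bp inside (19.6, fold 10.2, 20 fragments), the strongest of the gene. Without tract peaks, Tet3 kept RXR in ESCs, through its peaks 253 bp inside Tet3-205 (9.48) and 10 bp upstream of Tet3-201 (7.62), and lost RXR in NCs, Nur77 and H3.3.

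The FGFR1 libraries of NCs differed at Tet3. The second had no peak on the tract and one at chr6:83441504-83441689 (-log10 p 17.2, 23 fragments), its summit 33 bp inside Tet3-205, and the first had a further peak 10 bp inside Tet3-203 (12.2, 15 fragments). The first library's tract peak scaled to 55.3 fragments in the second and was not listed there. The lncRNA gene B230319C09Rik starts within 1 kb of the tract and of the Tet3-205 start. FGFR1 in ESCs had only a fully repeat-masked intronic peak in Tet3 (15.7).

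Tdg, the glycosylase that removes oxidised methylcytosine, had a peak in every library except FGFR1 in ESCs and H3.3. Both FGFR1 libraries of NCs had one at chr10:82629663-82629926, with a -log10 p of 13.2 and 19.7 (folds 8.26 and 8.17, 12 and 27 fragments) and summits 24 and 46 bp upstream of Tdg-201. The E-box CACGTG lay within 50 bp of both summits, and TGACGTCA further upstream, within the second library's wider peak only, as printed above. Scaled to the ESC background the peaks held 12.4 and 8.04 fragments, past the limit, and the ESC list of FGFR1 had none.

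A Tdg intron site followed, at chr10:82630019-82630205. It held RXR in ESCs (-log10 p 12.2) and NCs (8.07), Nur77 in ESCs (7.09) and the first FGFR1 library of NCs (13.3), with summits 179 to 230 bp inside Tdg-203. This was the only site of the 9 genes, apart from the Tet3 tract and the Tet2 coding exon, where RXR was listed in both states. Nur77 in NCs was absent from it and was instead listed 2232 bp upstream of Tdg-207 (8.12), overlapping the first FGFR1 library (13.5), and 87 bp upstream of Tdg-202 (8.38). The Tdg gene thus had Nur77 in both states with no overlapping peak.

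The FGFR1 libraries of NCs were also compared place by place. Of the 5 genes with FGFR1 in both, the peaks overlapped at Dnmt1, Tet1 and Tdg and not at Dnmt3a or Tet3, 3 of 5 (60%), against 7821 of 9342 (83.7%) over all protein-coding genes with FGFR1 in both. Scaled to the background of the second library, all 13 promoter peaks of the first would have passed, and 4 were matched there. The backgrounds were 4.16 and 6.78 fragments per kb, and the fragment lengths 72 and 153 bp. The scaling carries both differences, and none was made per kb. Of the 10 in the second, 4 would have passed in the first, of which the Dnmt1 and Tdg peaks were matched and those of Uhrf1 and Tet3 were not, and the Tet1 peak was matched although its scaled fragments (5.20) fell below the limit.

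**Figure D5:**
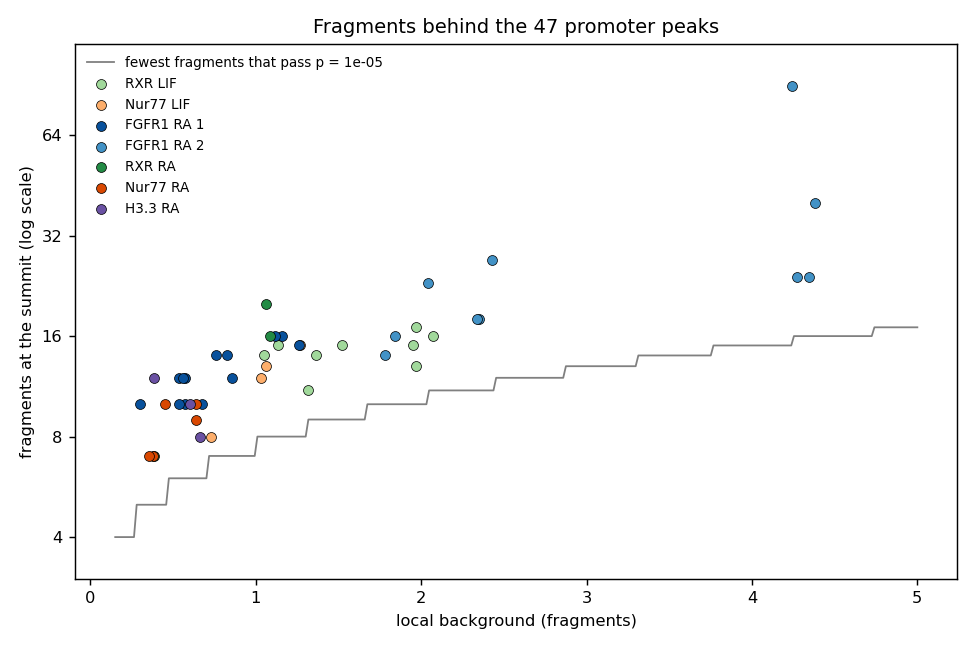
Fragments at the summit (log scale) against the local background for the 47 promoter peaks, coloured by library; the grey line is the fewest fragments that pass the caller's limit. The 4 peaks with a local background above 4 fragments, 1 at Dnmt1 and 3 at Uhrf1, are of the second FGFR1 library of NCs, Dnmt1 stands alone at 90 fragments, and the 5 Nur77 peaks of NCs have 7 to 10.

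Sequence content was not used to choose the genes. The median G and C content of the 47 promoter peaks was 65.7%, with 7.61 CpG per 100 bp, against 57.4% and 3.55 in the 29 gene body peaks, and single promoter peaks went down to 0 CpG (the Tet1 tract peak upstream of Tet1-202). Of the promoter peaks, 24 had their summit within 100 bp of a start and 41 within 1 kb, and 8 held a tract, against 9 of the gene body peaks. By place, 23 promoter peaks were intronic, 12 in untranslated exons, 7 in exons of non-coding transcripts, 3 upstream of the gene and 2 in coding exons.

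AGGTCA lay within 50 bp of the summit in 6 of the 47 promoter peaks (12.8%), at 4 sites of Dnmt3a, Tet1 and Tet2, where 3.08% to 4.42% of all promoter peaks of the libraries held it. The GC box was in 9 (19.1%, against 21.2% to 29.9%). GCGCATGC was in 4 (8.51%, against 1.67% to 4.17%), at 2 sites of Dnmt1. CACGTG was in 2 (4.26%, against 3.37% to 6.87%) and CCACNAGG in 1 (2.13%, against 1.78% to 2.62%). AAAGGTCA, TGACGTCA and CCGGAAGT were in none of these windows, and in at most 0.183%, 1.94% and 2.85% of all promoter peaks of a library. Peaks of different libraries at 1 site share their sequence, so these counts are not independent, and a match is a description of letters only.

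The wider pathway was counted from a list of 41 other genes in 5 roles. FGFR1 was at the promoters of 12 in ESCs, and of 30 and 36 in the NC libraries. It was at 28 in both NC libraries (68.3%, beside 42.6% of all genes). It was at 17 in both and not in ESCs (41.5%, beside 26.0%). RXR was at 23 in ESCs and 14 in NCs, Nur77 at 19 and 18, and H3.3 at 11. As shares of the list beside all genes, FGFR1 was at 29.3% and 19.7% in ESCs, 73.2% and 55.9% in the first NC library and 87.8% and 51.5% in the second. RXR was at 56.1% and 46.4% in ESCs and 34.1% and 26.2% in NCs, Nur77 at 46.3% and 29.8% in ESCs and 43.9% and 30.9% in NCs, and H3.3 at 26.8% and 17.9%. The list thus lay above all genes in each of the 8 libraries, with no test made. Promoter window sizes were not measured for the 41 genes, so the part of window size in these shares was not tested.

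By role, FGFR1 in ESCs was at 4 of the 6 maintenance partners, Hells, Pcna, Lig1 and Cdca7, of which Pcna is the replication clamp and Lig1 the ligase of lagging-strand fragments. It was at 2 of the 10 readers of methylation (Mbd3 and Mbd6), 1 of the 9 repair genes (Neil3), 3 of the 11 regulators (Cxxc1, Gadd45a and Trim28) and 2 of the 5 supply genes (Mat2a and Idh1). In both NC libraries it was at 5, 8, 6, 5 and 4 genes of these roles in the same order. Over all genes, FGFR1 was at 19.7% in ESCs and at 42.6% in both NC libraries. Neil3, a glycosylase of oxidised bases, and Lig1 had promoter peaks in all 8 libraries, a share not counted over all genes. Dppa3, which protects maternal methylation, Prdm14, a repressor of the de novo enzymes, and Ogt, a TET partner, had none in any. The same was true of 29.8% of all protein-coding genes.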

How the data were processed

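ChIP was measured in 8 libraries of E14Tg2a cells. Per the labels and methods, the authors aligned reads to mm10 with Bowtie 1.0, keeping unique alignments, and called peaks in each library with MACS2 at p = 1e-05, without pooling; no control library is named in the sources used here. The deposited lists give per peak a score, a fold over local background (a ratio), a -log10 p and a -log10 q, of which the fold, the -log10 p and the summit were used. Each group had 1 library except FGFR1 in NCs (2), and nothing states that those came from separate cultures. Peaks were set against GENCODE M21 starts with an overlap of 20 bp. Fragments and local background were solved from fold and p within 0.002 in -log10 p, and the solver was tested on simulated data. The scaling of fragments to another library, by the ratio of genome backgrounds at a position, was chosen after seeing the data. That ratio reflects fragment length as well as depth. Counting intervals were not given, since a peak list holds only values above its limit. All 9 genes are named, with every promoter peak, and gene body sites are described where 2 or more libraries had a peak. The members and lists were chosen with earlier results of these data known. Analyses used Python 3.11.15, pandas 2.3.3, scipy 1.17.1 and pysam 0.24.0. The alternatives tried are given in the closing section, and no test across genes was run.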

Additional observations from a re-analysis of the deposited data

How the results depend on the processing

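Of 66 recomputed counts of genes with a promoter peak, 57 stayed within 1.5 times the reported count and 9 moved further. The 57 include the FGFR1 count of 0 in ESCs, which alternatives that only drop peaks or narrow the window could not change. With every list cut to its 10634 strongest peaks, RXR in ESCs had 2 genes (17.1% of all genes) and Nur77 in ESCs 2 (13.1%). FGFR1 in NCs had a mean of 2 (SD 2.83), beside 20.6% and 44.7% of all genes in its 2 libraries. RXR in NCs had 1 (15.2%) and Nur77 in NCs 0 (11.3%). The count of genes with FGFR1 in both NC libraries was 0, a share not counted over all genes. At a -log10 p of at least 10, RXR in NCs and Nur77 in NCs each fell to 1 (13.1% and 18.0% of all genes). Without peaks on an alternating tract RXR in NCs was 1 (23.7%). Leaving out 1 FGFR1 library of NCs gave 6 to 7. A fold of at least 5, a window of 1 kb on either side, starts of protein-coding transcripts alone, an overlap of 1 bp and a summit inside the window moved none that far. With the 1 kb window or the coding starts, Nur77 in NCs fell to 3 genes, without Tet1, beside 25.8% and 27.9% of all genes. The cause was not tested beyond the shorter lists these alternatives build. No paired analysis was possible because the groups shared fewer than 2 replicate numbers and no result came from a test. The lists hold only peaks past the limit, so a missing peak is not a measured absence, and RXR in NCs and H3.3 were the shallowest.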
